A study of Mus musculus with 9 samples.

Results

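HT22 cells, an immortalised mouse hippocampal neuronal line, were profiled by mRNA sequencing in 9 libraries, and the 3 libraries of the experimental group were set against the 3 of the control group. All 6 libraries come from the same line and the same library kit. The labels give no genotype, dose or time, and nothing in them says which cultures received hemin, the oxidised heme in the series title, or the micelle PPP8 named beside it. The groups therefore keep the names of the labels. Expression is given in FPKM, which divides fragment counts by transcript length and sequencing depth, so a level can be compared between genes. Of 29756 entries, the 11974 that reached 1 FPKM in 3 or more of all 9 libraries were compared on log2(FPKM + 1). Nothing says that the replicates were separate cultures, so each p reflects only how far these libraries differ from one another, which may be technical.

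Cells under oxidative or protein stress are known for raising chaperones and antioxidant enzymes through a small set of stress factors, among them NRF2, HSF1 and ATF4. The rest of the transcriptome holds the factors that set cell identity, the receptors that make a cell responsive to a signal, the proteins it secretes, and the machinery that moves RNA and organelles. A level of mRNA does not give the level of protein, and, in bulk RNA, fewer cells of a type and less RNA per cell cannot be told apart.

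The difference between the groups was broad. Of the genes tested, 74% were called at an adjusted p under 0.05 (limma with Benjamini-Hochberg adjustment), 23.5% higher and 50.5% lower in the experimental group. A difference of at least 1 log2 unit was reached by 363 genes higher (3.03%) and 956 lower (7.98%), and these shares are the background for every family below. The 2 groups did not overlap for 76.2% of all genes tested, so a lack of overlap is common here, and the rule for named genes required it of those chosen for their change. Differences of at least 2 log2 units were fewer and more even, with 47 genes higher and 53 lower. The split between directions depends on the scaling. On the deposited scale the genes tested had a median of -0.21 log2 units. Median-ratio scaling sets each library by its median gene, so a median near 0 and a near-even split follow from its design. It moved the median to 0.003, with 4380 genes called higher and 4357 lower. That scaling gave 667 genes at least 1 log2 unit higher and 486 lower. Quantile normalization gave 606 and 492, and scaling to TPM 458 and 1733. Median-ratio scaling and quantile normalization both take the libraries to have no net shift, which was not tested.

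The experimental libraries correlated at 0.992 to 0.994 with one another, the control libraries at 0.990 to 0.992, and libraries of different groups at 0.916 to 0.931, all across genes, which are not independent replicates. Summed FPKM was 316900 to 327100 in control and 332900 to 338800 in experimental libraries, without overlap. Entries at 1 FPKM or more numbered 11646 to 11732 in control and 11154 to 11267 in experimental libraries. The cause of these group differences was not tested, and the number of reads per library is unknown. Experimental replicate 2 lay nearest to the controls: it was the lowest of its group for 244 of the 363 genes at least 1 log2 unit higher and the highest of its group for 619 of the 956 lower. Without it those counts were 403 and 1038. Of 14 neuronal markers used to check the labelled cell type, 10 were under 1 FPKM in all 6 libraries, among them Rbfox3, Map2, Dcx and Gad1, and the neuronal markers summed to 18.6 to 24.6 FPKM in control and 15.3 to 15.6 in experimental libraries. Of the 3 tested, Syn1 and Eno2 were called lower, from 6.01 to 3.02 and from 5.34 to 2.01 FPKM, and Tubb3 was not called, at 7.12 and 8.41, though it was called higher after median-ratio scaling (0.45) and quantile normalization (0.46). Fibroblast and smooth muscle markers summed to 401 to 508 FPKM in control and 158 to 162 in experimental libraries, most of it Col1a1 and Col1a2. Endothelial markers summed to 0.10 to 0.62 FPKM across the 6 libraries. The part of these markers in the results was not tested.

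**Figure D1:**
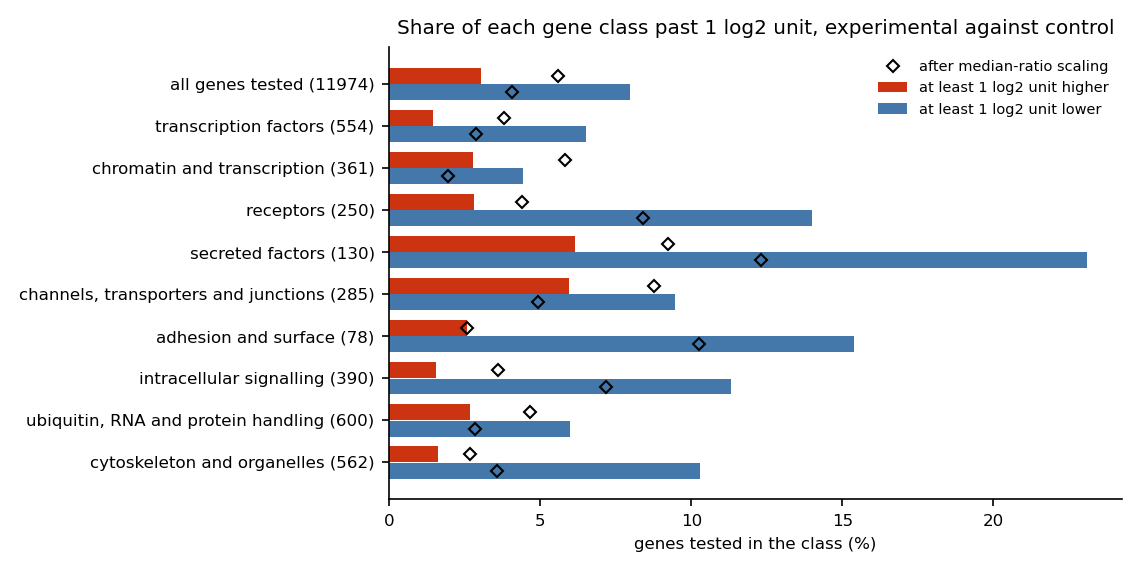
Share of each gene class at least 1 log2 unit higher (red) or lower (blue) in the experimental than in the control group at an adjusted p under 0.05, with the number of genes tested in brackets. Diamonds give the same shares after median-ratio scaling. Secreted factors had the largest share lower of the classes drawn as deposited, 23.1%, against 7.98% of all genes tested.

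Among 554 transcription factors with a tested entry, 8 were at least 1 log2 unit higher and 36 lower, 1.44% and 6.5%, a split that median-ratio scaling reversed to 21 and 16 and quantile normalization to 23 and 17. Leaving out the Zfp zinc finger genes left 252 factors, 5 higher and 26 lower by that much. These were 1.98% and 10.3%, against 3.03% and 7.98% of all genes tested. Median-ratio scaling turned them to 15 and 11, and quantile normalization to 15 and 12. Outside the transcription factor lists, a large fall was that of Osr1, an odd-skipped zinc finger factor of mesoderm and kidney development. It was at 5.39, 6.05 and 5.22 FPKM in the experimental libraries and at 40.2, 43.6 and 41.7 in the control libraries. All control values were above all experimental ones, and the difference was -2.71 log2 units (SE 0.08, adjusted p = 1.41e-08). Bhlhe40, a basic helix-loop-helix repressor of the circadian and hypoxia responses, was at 5.92, 6.29 and 6.38 FPKM against 25.1, 23.1 and 22.4. It fell by 1.77 log2 units (SE 0.07, adjusted p = 4.75e-08), with the groups well apart. Of 11 developmental helix-loop-helix factors tested, 9 fell and none rose. Atoh8 was among them (3.71-fold lower, adjusted p = 4.54e-07), and Tcf3, the most abundant member, fell from 33.2 to 20.7 FPKM on average.

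HOX factors, which set position along the body axis, moved in 1 direction. All 12 HOX genes tested, of 24 with an entry, were called lower, with a median difference of -0.73 log2 units, and 11 of them stayed lower after median-ratio scaling with none higher. Hoxd8 was at 3.55, 3.90 and 3.67 FPKM in experimental and 11.01, 11.4 and 9.42 in control libraries. Hoxa2 and Hoxc5 also fell by more than 1 log2 unit, from 4.75 and 2.09 FPKM to 1.4 and 0.52. Hoxa7, the most abundant HOX gene at 17.5 FPKM in controls, fell to 8.56. Hoxa5 differed least of those given, at -0.32, and its groups overlapped. Its call was lost after median-ratio scaling (-0.11) and quantile normalization (-0.03), and when no filter on low values was used (-0.32). It was also lost without experimental replicate 1 or 3 or control replicate 1 or 2 (-0.30 to -0.23). Neighbouring HOX genes overlap on the genome, and the use of strand in the counting is not given in the sources used here, so single members are uncertain.

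STAT and IRF factors carry cytokine and interferon signals to the nucleus. Of 10 tested, 7 fell and none rose, 4 of them by at least 1 log2 unit, or 7 lower and 1 higher after median-ratio scaling and 7 and 3 after quantile normalization. Stat5a, which follows growth hormone and interleukin receptors, was at 1.19, 1.54 and 1.01 FPKM in experimental and 5.84, 5.70 and 5.85 in control libraries. Its groups did not overlap, and Stat5a fell by 1.60 log2 units (adjusted p = 7.52e-07). Stat2 fell 2.50-fold and Stat6, the most abundant of them, from 50.2 to 25.8 FPKM. Stat3, Irf2 and Irf9 were not called as deposited, with differences of -0.07, -0.10 and 0.08. Irf9 was called higher after median-ratio scaling (0.23), and all 3 were after quantile normalization (0.19, 0.23 and 0.34).

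ETS factors, many of which are switched on by ERK signalling, split. Of 15 tested, 8 rose and 5 fell, with a median of 0.24 log2 units above zero, and 9 rose and 4 fell after median-ratio scaling. Etv5 was at 19.2, 14.4 and 17.4 FPKM in experimental and 5.05, 4.14 and 5.30 in control libraries, a rise of 1.62 log2 units (SE 0.16, adjusted p = 9.07e-06). Experimental replicate 2 was the lowest of its group and still above every control. Ets2, the most abundant member, rose 1.94-fold. Ets1 and Elk3, a repressor of the same family, fell 2.21-fold and 2.65-fold.

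Other factors that rose by at least 1 log2 unit were few. Klf11, a TGF-beta-inducible repressor, was at 7.80, 5.49 and 7.17 FPKM against 2.55, 2.34 and 2.40 in control. Irx1, an Iroquois homeobox factor, was at 16.8, 14.1 and 17.1 against 6.71, 7.09 and 6.22. Atf6, the membrane-bound sensor of unfolded protein in the endoplasmic reticulum, was at 27.0, 24.7 and 27.6 against 12.4, 11.4 and 12.3. The groups did not overlap for any of the 3, and the adjusted p-values were 5.3e-06, 1.02e-05 and 5.07e-07. Ppard, the fatty acid receptor PPAR-delta, rose 2.24-fold. Myc, the growth-promoting factor, rose from 22.3 ± 0.888 to 43.6 ± 1.59 FPKM (SD, n = 3 each), 0.94 log2 units (adjusted p = 2.18e-06).

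Among factors that fell by at least 1 log2 unit were Creb3l2, a relative of Atf6 (3.11-fold), Dbp, a clock output factor (4.64-fold), Npas4, an activity-dependent neuronal factor (6.40-fold), Mxd3, a partner of MAX (3.10-fold), Thra, the thyroid hormone receptor alpha (2.54-fold), and Vdr, the vitamin D receptor (3.32-fold). The ratios of Dbp and Npas4 rest on low levels. Nfix, which acts in neural progenitors, fell 2.44-fold, Foxo4, a forkhead factor restrained by insulin signalling, 2.46-fold, and Snai2, a repressor of E-cadherin, 2.41-fold. Of 20 nuclear receptors tested, 4 rose and 13 fell, or 6 and 10 after median-ratio scaling. Rarg, a retinoic acid receptor and the most abundant of them, went from 36.9 to 22.5 FPKM. Among 302 Zfp zinc finger genes, 56 rose and 155 fell, with a median of -0.21 log2 units, like that of all genes tested. After median-ratio scaling 100 rose and 104 fell, while quantile normalization put more of them higher than lower. ZBTB factors leaned higher, with 15 of 35 higher and 13 lower as deposited and 19 and 9 after median-ratio scaling, but scaling to TPM removed that lean.

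**Figure D2:**
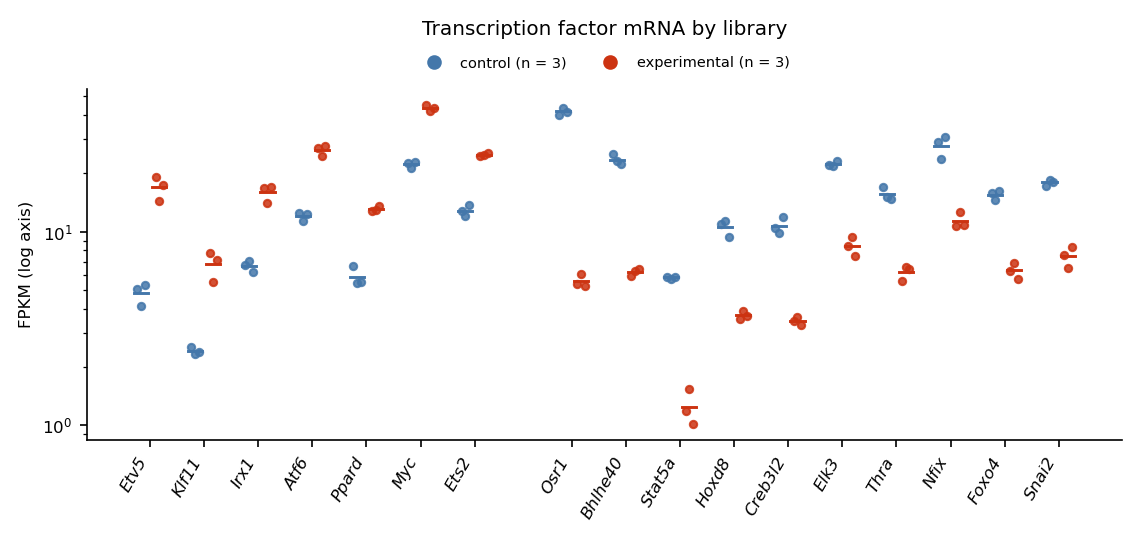
FPKM of 17 transcription factors in each control (blue) and experimental (red) library on a log axis, with bars at the group means, 7 factors that rose on the left and 10 that fell on the right. The groups do not overlap for any factor drawn, and Osr1 shows the widest gap of those that fell.

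Chromatin and the general transcription machinery changed less in size. Of 361 such genes, 10 were at least 1 log2 unit higher and 16 lower, 2.77% and 4.43%, and 21 and 7 after median-ratio scaling and 23 and 8 after quantile normalization. A large fall was that of H1f0, the linker histone of slowly dividing and differentiated cells. It was at 58.5, 83.55 and 69.9 FPKM in experimental and 366, 363 and 370 in control libraries, -2.37 log2 units (SE 0.15, adjusted p = 4.03e-07). The control libraries lay close together and the experimental ones were all far below them. Macroh2a2, a histone variant of silent chromatin, fell 3.38-fold. H3c15 and H2bc4, replication-type histones, were called 6.16-fold and 3.23-fold higher, but their mRNAs mostly lack poly(A) tails and have near-identical copies, so these values are uncertain. Histone deacetylases and acetyltransferases fell in 22 of 34 cases and rose in 4, or 18 and 9 after median-ratio scaling. The class IIa deacetylases Hdac7 and Hdac5 fell 2.70-fold and 2.32-fold, and the acetyltransferase Kat2b 2.43-fold.

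Genes that release paused RNA polymerase, or hold it paused, had 2 members past 1 log2 unit in each direction, and 3 higher with none lower after median-ratio scaling. Eaf1, which stimulates the elongation factor ELL, was at 49.5, 43.8 and 50.1 FPKM in experimental and 10.4, 10.2 and 10.2 in control libraries (4.66-fold, adjusted p = 4.39e-08). Brd2, a reader of acetylated histones, was at 95.9, 88.25 and 96.7 against 43.3, 42.6 and 43.5 (2.17-fold). Both genes had groups well apart. Nelfcd, a subunit of the pausing factor NELF, fell 2.2-fold and Hexim2, an inhibitor of P-TEFb, 2.91-fold. Of the 27 pause-release genes tested, 10 rose and 7 fell, or 18 and 6 after median-ratio scaling, and Tcea1, the most abundant, rose 1.62-fold. Polr2a, the largest subunit of RNA polymerase II, fell from 121 to 72.6 FPKM. Of the 73 polymerase and general factor genes, 24 rose and 30 fell, 36 and 17 after median-ratio scaling. Taf7, a TFIID subunit, rose 3.31-fold, while Taf9b fell 4.14-fold and the Mediator subunit Med16 3.27-fold. Cbx2, a Polycomb reader, rose 2.12-fold.

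Receptors held a larger share of strong falls than all genes. Of 250 receptor and pathway genes, 35 were at least 1 log2 unit lower, 14.0% against 7.98% of all genes tested, and 7 were higher, 2.80%. After median-ratio scaling 21 were lower and 11 higher. Tyrosine kinase receptors for growth factors fell in 12 of 16 cases and rose in 2, or 10 and 3 after median-ratio scaling. Pdgfrb, the PDGF receptor beta, was at 4.32, 4.77 and 5.13 FPKM in experimental and 22.3, 19.8 and 24.6 in control libraries. Pdgfra, its partner, was at 5.82, 6.51 and 5.70 against 15.8, 14.95 and 16.4. The 2 receptors, Pdgfrb and Pdgfra, fell 4.69-fold and 2.62-fold, with no overlap of groups (adjusted p = 5.05e-08 and 1.44e-07). Pdgfb, a ligand of both, fell 3.74-fold, from 2.95 to 0.79 FPKM. Ddr1, a collagen receptor, fell 2.87-fold. Axl, a receptor for the bridging protein Gas6 and the most abundant kinase receptor here, went from 124 ± 2.58 to 65.2 ± 2.81 FPKM. Fgfr1 was not called, at 21.8 to 24.2 FPKM in experimental and 21.2 to 23.9 in control libraries, but was called higher after median-ratio scaling (0.28).

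The co-receptors of Hedgehog, a morphogen read at the primary cilium, were among the receptors with large falls. Gas1 was at 5.65, 7.11 and 6.09 FPKM in experimental and 34.1, 33.4 and 32.8 in control libraries, -2.25 log2 units (SE 0.11, adjusted p = 1.35e-07). Cdon, which binds Hedgehog beside Gas1, was at 2.66, 3.03 and 2.61 against 10.7, 10.04 and 11.4. In both genes every control library exceeded every experimental library by a wide margin. Evc, a ciliary partner of the signal transducer Smo, fell 3.15-fold, and Smo itself 1.57-fold. Of 12 Hedgehog pathway genes tested, 10 fell and 1 rose, or 7 and 2 after median-ratio scaling. The 1 that rose was Ptch1, the Hedgehog receptor and a target of the pathway, by 0.56 log2 units.

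Only 44 of the 244 G protein-coupled receptor genes with an entry passed the filter on low values. Of these, 28 fell and 8 rose, or 25 and 13 after median-ratio scaling, and 6 fell by at least 1 log2 unit while none rose by as much as deposited. Median-ratio scaling and quantile normalization each gave 2 higher and 3 lower by that much, and scaling to TPM 2 and 13. Mrgprf, an orphan receptor, was at 4.86, 7.48 and 5.70 FPKM in experimental and 25.5, 26.3 and 28.8 in control libraries (4.47-fold lower, adjusted p = 2.14e-06). Fzd2, a Wnt receptor, fell 2.85-fold, and F2r, the thrombin receptor and the most abundant of them, from 47.9 to 34.9 FPKM. Of 33 Wnt pathway genes, 19 fell and 8 rose, near the shares of all genes tested, 50.5% lower and 23.5% higher. After median-ratio scaling 14 went each way. The coactivator Bcl9l fell 3.51-fold and beta-catenin, Ctnnb1, from 125 to 95.3 FPKM.

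Cytokine receptors gave 10 lower and 6 higher of 18, and 10 and 8 after median-ratio scaling. Ghr, the growth hormone receptor, was at 2.07, 2.51 and 2.42 FPKM in experimental and 10.6, 10.5 and 10.8 in control libraries. It was 4.54-fold lower (adjusted p = 3.69e-08), and the control libraries differed little from each other. Il11ra1, the interleukin-11 receptor, fell 3.98-fold. Both chains of the interferon gamma receptor, Ifngr1 and Ifngr2, fell by 0.62 and 0.66 log2 units. The shared signalling chain Il6st was not called as deposited (0.11) but was called higher after median-ratio scaling (0.35). Il4ra, the interleukin-4 receptor, rose by 0.80.

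Fewer receptors rose. Outside the receptor lists, Procr, the endothelial protein C receptor, which also marks some stem cells, was among the genes of the whole table that rose furthest. It was at 74.2, 66.6 and 70.9 FPKM in experimental and 5.88, 6.33 and 6.70 in control libraries, 3.29 log2 units higher (SE 0.08, adjusted p = 3.64e-09). The lowest experimental library was far above the highest control. Jag1, a Notch ligand on the cell surface, was at 6.94, 6.12 and 6.82 against 1.35, 1.07 and 1.56 (1.72 log2 units higher, adjusted p = 1.56e-07). Its receptor Notch2 stood at 15.2 to 17.5 FPKM in experimental and 16.3 to 21.1 in control libraries, not called unless scaled to TPM (-0.29) or without control replicate 2 (-0.34), and Notch1 at 0.06 or less in all 6. The Notch modifier Lfng fell 3.54-fold. In the TNF superfamily 9 of 21 genes rose and 9 fell, 12 and 6 after median-ratio scaling and more lower than higher after scaling to TPM. The decoy receptors Tnfrsf23 and Tnfrsf22 rose 2.87-fold and 2.20-fold, and Eda2r, a p53-inducible receptor for ectodysplasin, 2.68-fold. The paralogs Tnfrsf22 and Tnfrsf23 lie side by side and are similar in sequence, so they are uncertain as single genes. Tnfrsf1b, the second TNF receptor, fell 2.47-fold, and the ligand Tnfsf12 3.75-fold, while its receptor Tnfrsf12a rose from 40.3 to 59.9 FPKM.

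Sensors of foreign nucleic acid did not move together. Cgas, the sensor of cytosolic DNA, was at 15.6, 14.4 and 16.2 FPKM in experimental and 7.78, 6.10 and 6.98 in control libraries (2.21-fold higher, adjusted p = 1.88e-06). Ddx58, the RNA sensor RIG-I, fell from 5.41 to 1.47 FPKM, and Tlr3 from 2.28 to 0.607. Of 17 pattern recognition genes tested, 12 fell and 4 rose, or 9 and 5 after median-ratio scaling.

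Secreted factors had a larger share of strong change than all genes in both directions. Of 130 tested, 30 were at least 1 log2 unit lower, 23.1%, and 8 higher, 6.15%, or 16 and 12 after median-ratio scaling. Growth factors rose in 13 and fell in 16 of 32 cases, and in 15 and 11 after median-ratio scaling and 13 and 12 after quantile normalization. Cntf, a survival factor for neurons, was at 3.5, 2.1 and 2.79 FPKM in experimental and 0.48, 0.87 and 0.62 in control libraries, and its receptor genes Cntfr and Lifr stayed at 0.09 FPKM or less. The control libraries of Cntf all lay under 1 FPKM, so its 4.26-fold rise rests on a low level.

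A pair of stress-responsive hormones appeared at low level. Gdf15, a circulating signal of cell stress, was at 2.47, 2.77 and 2.77 FPKM in experimental and 0.07, 0.13 and 0.00 in control libraries. Fgf21, a fasting and mitochondrial stress hormone, was at 2.23, 1.95 and 3.38 against 0.00, 0.30 and 0.32. Each was clear of the control range (adjusted p = 8.41e-07 and 9.68e-06), and a ratio to control levels this near 0 has little precision. Gfral, the receptor gene of Gdf15, was listed at 0 in all 6 libraries, and Klb, the co-receptor of Fgf21, did not exceed 0.11 FPKM. Fgfr1, a receptor of Fgf21 described above, was well detected, at 21.8 to 24.2 FPKM in experimental and 21.2 to 23.9 in control libraries. Stc2, stanniocalcin, rose by 1.01 log2 units, from 1.02 to 3.06 FPKM. The vasoactive peptides fell: Apln, apelin, was at 1.90, 1.93 and 2.14 FPKM against 14.5, 12.02 and 11.8 (6.42-fold lower, adjusted p = 7.8e-08), and Adm and Edn1 changed by -1.45 and -1.19 log2 units.

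Interleukins were mostly lower. Il34, a ligand of the macrophage growth factor receptor, was at 2.45, 3.18 and 2.78 FPKM in experimental and 10.7, 10.8 and 10.7 in control libraries (3.83-fold lower, adjusted p = 1.35e-07), while its receptor Csf1r did not exceed 0.13 in any of them. Interleukins and related cytokines fell in 10 of 13 cases and rose in 1, or 9 and 2 after median-ratio scaling. The chemokines Cxcl5 and Ccl9 fell 2.72-fold and 4.69-fold, in a family with 8 lower and 1 higher of 13 as deposited, 5 and 3 under median-ratio scaling and 6 and 4 under quantile normalization. Spp1, osteopontin, the most abundant cytokine, fell from 297 to 255 FPKM as deposited, a direction that reversed to 0.032 after median-ratio scaling.

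Metalloproteinases and their inhibitors, which remodel the space around cells, had a median well below that of all genes. Of 26 genes, 20 fell and 3 rose, by a median of -0.81 log2 units, or 17 and 6 with a median of -0.57 after median-ratio scaling. Adamts5, an aggrecan-cleaving protease, was at 1.86, 1.86 and 2.02 FPKM in experimental and 12.8, 12.7 and 14.0 in control libraries (6.89-fold lower, adjusted p = 2.14e-08). Timp2, an inhibitor that also helps activate MMP2, was at 38.2, 37.1 and 37.0 against 115, 118 and 118 (3.12-fold lower). Mmp2 fell by 1.14 log2 units and Mmp14, the membrane protease that activates it, by 1.35. All 3 members of that activation complex were lower, while Timp1, another inhibitor, rose by 0.48. Adam1a was called 1.67 log2 units higher from 5.54, 0.54 and 3.94 FPKM against 0.07, 0.20 and 0.21, a spread that rests on experimental replicates 1 and 3. The serine protease Prss23 fell further, from 122 ± 5.09 to 14.6 ± 0.655 FPKM (adjusted p = 3.69e-08).

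Serpins, inhibitors of serine proteases, split in direction: of 13 tested, 4 rose and 6 fell, with 2 and 5 of them past 1 log2 unit, while quantile normalization put more of them higher than lower. Serpinh1, the collagen chaperone HSP47, rose 2.05-fold to 473 FPKM on average. Serpinb8, an intracellular inhibitor, fell 5.87-fold. The complement proteases C1s1 and C1ra fell 2.82-fold and 2.23-fold.

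**Figure D3:**
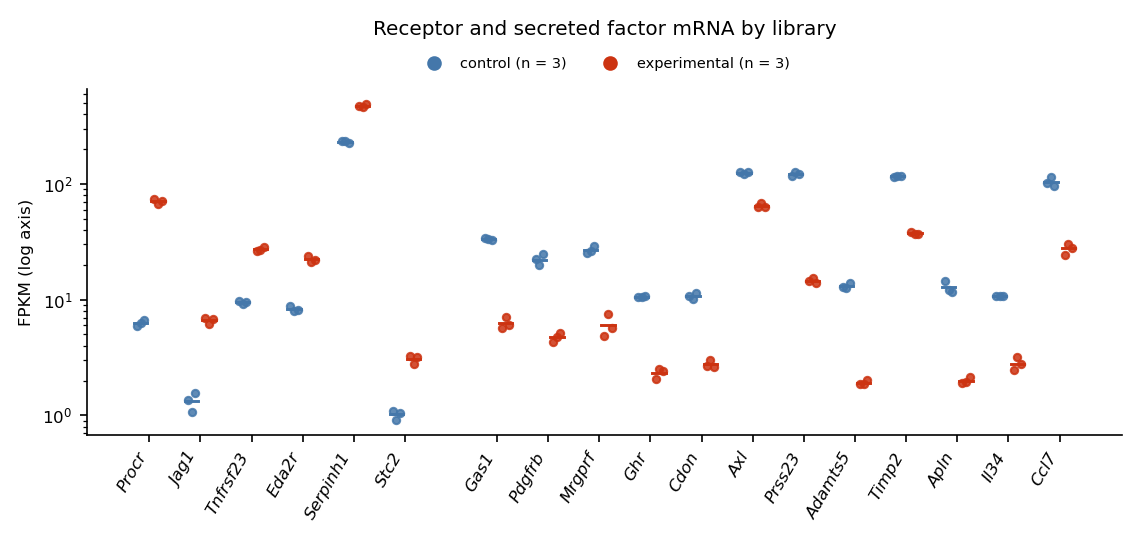
FPKM of 18 receptors and secreted factors in each control (blue) and experimental (red) library on a log axis, with bars at the group means, 6 that rose on the left and 12 that fell on the right. No gene drawn has overlapping groups, and Procr and Prss23 moved furthest in their directions.

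Transporters and channels were mixed. Solute carriers gave 12 genes at least 1 log2 unit higher and 15 lower of 163, 7.36% and 9.20%, a balance that turned to 17 and 8 after median-ratio scaling and 16 and 8 after quantile normalization. Slc22a23, an orphan organic ion carrier, was at 11.2, 11.1 and 11.5 FPKM in experimental and 2.25, 2.07 and 2.06 in control libraries (5.30-fold, adjusted p = 7.76e-09). Slc1a4, a carrier of serine, alanine and cysteine, was at 68.6, 66.2 and 71.4 against 14.8, 15.4 and 14.0 (4.67-fold). Slc25a33, the mitochondrial pyrimidine nucleotide carrier, rose 3.29-fold, while Slc25a24, Slc25a11 and Slc25a12, carriers of ATP-magnesium, oxoglutarate and aspartate, fell 3.42-fold, 3.09-fold and 3.02-fold. Of 40 mitochondrial carriers 25 fell and 9 rose, or 18 and 12 after median-ratio scaling.

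ABC transporters, which pump lipids, drugs and conjugates with ATP, had 4 of 22 members past 1 log2 unit in each direction, but 5 higher and 1 lower under median-ratio scaling and 4 and 1 under quantile normalization. Abcc1, an exporter of glutathione conjugates, was at 27.8, 29.4 and 29.0 FPKM in experimental and 6.40, 5.48 and 5.86 in control libraries, 2.10 log2 units higher (SE 0.07, adjusted p = 1.44e-08). Abcc4, an exporter of cyclic nucleotides and other anions, rose 3.81-fold and Abcb6, a porphyrin transporter, 3.15-fold. Abcg2, which exports porphyrins and drugs, fell 3.17-fold. The mitochondrial Abcb8 fell 2.96-fold. Among channels, Asic1, an acid-sensing ion channel of neurons, was at 1.83, 2.06 and 1.75 against 9.94, 9.43 and 10.1 (5.22-fold lower, adjusted p = 8.91e-08), and the ATP-gated P2rx5 fell 3.83-fold. Aqp5, a water channel, fell 4.67-fold, while Aqp1 rose from 83.7 to 121 FPKM.

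Adhesion molecules were mostly lower. All 22 cadherins and protocadherins tested, of 105 with an entry, were called lower, with a median difference of -0.68 log2 units, and 20 stayed lower with none higher after median-ratio scaling. Pcdh18 was at 6.06, 5.08 and 6.26 FPKM in experimental and 17.5, 17.5 and 19.6 in control libraries (3.14-fold lower, adjusted p = 1.49e-07). Cdh26 and Cdh1, E-cadherin, fell 6.35-fold and 4.06-fold from low levels. Pcdhgc3, the most abundant entry, fell from 102 to 55.7 FPKM, but clustered protocadherins share exons, so single members are uncertain. Annexins, S100 proteins and galectins, which bind membranes, calcium and sugars, fell in 16 of 20 cases and rose in 1, or 12 and 4 after median-ratio scaling. Anxa1, an anti-inflammatory annexin, was at 79.6, 83.2 and 70.6 FPKM against 199, 232 and 206. Vcam1, a leukocyte adhesion molecule, fell 2.69-fold, whereas Pvr, the poliovirus receptor CD155, rose 2.23-fold and Alcam 3.43-fold.

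Signalling inside the cell gave 6 of 390 genes at least 1 log2 unit higher and 44 lower, 1.54% and 11.3%, or 14 and 28 after median-ratio scaling. Pak3, a kinase driven by Rac and Cdc42, was at 4.43, 5.27 and 4.63 FPKM in experimental and 22.8, 22.0 and 24.8 in control libraries (4.85-fold lower, adjusted p = 9.27e-08). The Cdc42 effectors Cdc42ep3 and Cdc42ep2 fell 3.88-fold and 3.75-fold. Mapk3, the kinase ERK1, went from 63.3 to 27.2 FPKM, and Prkaca, the catalytic subunit of protein kinase A, fell 2.62-fold. Map2k6, an activator of p38, fell 7.71-fold, a ratio that rests on a low level. Prkg2, a cGMP-dependent kinase, and Rps6ka2, an ERK-activated kinase, rose 2.50-fold and 2.28-fold. Cdkn2d, an inhibitor of CDK4 and CDK6, fell by 2.05 log2 units, from 18.2 to 3.65 FPKM.

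Of 600 genes of ubiquitin, RNA and protein handling, 16 were at least 1 log2 unit higher and 36 lower, 2.67% and 6%, both under the shares of all genes, while median-ratio scaling gave 28 and 17 and quantile normalization 23 and 16. Rnf183, a membrane-bound ubiquitin ligase of the endoplasmic reticulum stress response, was at 4.57, 4.49 and 4.76 FPKM in experimental and 0.04, 0.08 and 0.04 in control libraries (adjusted p = 7.84e-07). Klhl21, a substrate adaptor of the CUL3 ligase, was at 44.6, 46.8 and 49.6 against 12.95, 12.5 and 13.6 (3.6-fold). Fbxo30 rose 2.86-fold. Deubiquitinases gave 23 higher and 20 lower of 61, or 35 and 12 after median-ratio scaling and more lower than higher after scaling to TPM. The 3 Usp17-like genes Usp17la, Usp17le and Usp17lb rose 5.83-fold, 4.84-fold and 9.16-fold, but they are near-identical copies on chromosome 7 and cannot be told apart. Cyld, a deubiquitinase that restrains NF-kB, fell 3.22-fold.

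Nuclear pore and karyopherin genes, which carry cargo between nucleus and cytoplasm, had a median above that of all genes. Of 54 tested, 24 rose and 17 fell with a median of 0.07, or 37 and 6 with a median of 0.30 after median-ratio scaling. Xpot, the exporter of transfer RNA, was at 71.1, 72.25 and 71.9 FPKM in experimental and 26.6, 26.1 and 28.6 in control libraries (2.65-fold, adjusted p = 2.67e-08), and Ipo7, which imports ribosomal proteins, rose 2.41-fold. Nup153, a pore basket protein, rose by 0.97 and Ranbp2 by 0.85, whereas the importin Ipo13 fell by 0.94. The nucleolar helicase Ddx21 rose 3.07-fold. Zfp36 and Rc3h1, which destabilise cytokine mRNAs, rose 2.34-fold and 2.26-fold, while Zc3h12a, which does so by cleavage, fell 2.29-fold. DNA repair genes leaned lower: 65 of 98 fell and 12 rose, or 48 and 20 with median-ratio scaling, and the gap-filling polymerases Polm and Poll were 4.08-fold and 3.46-fold lower.

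The cytoskeleton and organelle families had medians below that of all genes. Together their median was -0.47 log2 units against -0.21, and -0.255 against 0.003 after median-ratio scaling. Of 562 such genes, 58 were at least 1 log2 unit lower and 9 higher, 10.3% and 1.60%. After median-ratio scaling 20 were lower and 15 higher, against 486 and 667 of all 11974 genes tested. On that scale their share of strong falls did not exceed that of all genes. Of 87 genes of ciliary transport, 66 fell and 9 rose, and in 54 and 16 under median-ratio scaling. The intraflagellar transport genes Ift81 and Ift74 were 3.71-fold and 1.90-fold lower. Kinesins and dyneins fell in 42 of 56 and rose in 6. Kif2a, a kinesin that depolymerises microtubules, was at 21.2, 19.02 and 21.7 FPKM against 7.72, 8.51 and 8.74 (2.48-fold higher). Tubulins and their cofactors fell in 18 of 25 cases and rose in 2, with Tuba1b from 652 to 345 FPKM. Vim, the intermediate filament vimentin, went from 633 ± 24.97 to 316 ± 13.4 FPKM. Of 25 peroxisome genes, 19 fell and 4 rose. Glycosyltransferases fell in 46 of 66 cases and rose in 9, and their directions and those of the ciliary, kinesin, tubulin and peroxisome lists were the same after median-ratio scaling, quantile normalization and scaling to TPM.

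Small-molecule pathways outside the main stress genes held both directions. Polyamine synthesis rose at its early steps: Odc1, ornithine decarboxylase, was at 47.0, 48.3 and 49.9 FPKM in experimental and 22.4, 23.2 and 22.8 in control libraries, and Srm, spermidine synthase, rose 2.13-fold. Sat1, which starts polyamine breakdown, also rose, 1.51-fold. Of 14 polyamine genes, 7 rose and 5 fell, or 9 and 2 after median-ratio scaling. Ppat, the first enzyme of purine synthesis, and Uck2, a uridine kinase, rose 2.35-fold and 2.39-fold in a family with 13 higher and 10 lower of 29. Impact, an imprinted inhibitor of the kinase GCN2, rose 3.10-fold to 80.3 ± 3.64 FPKM.

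**Figure D4:**
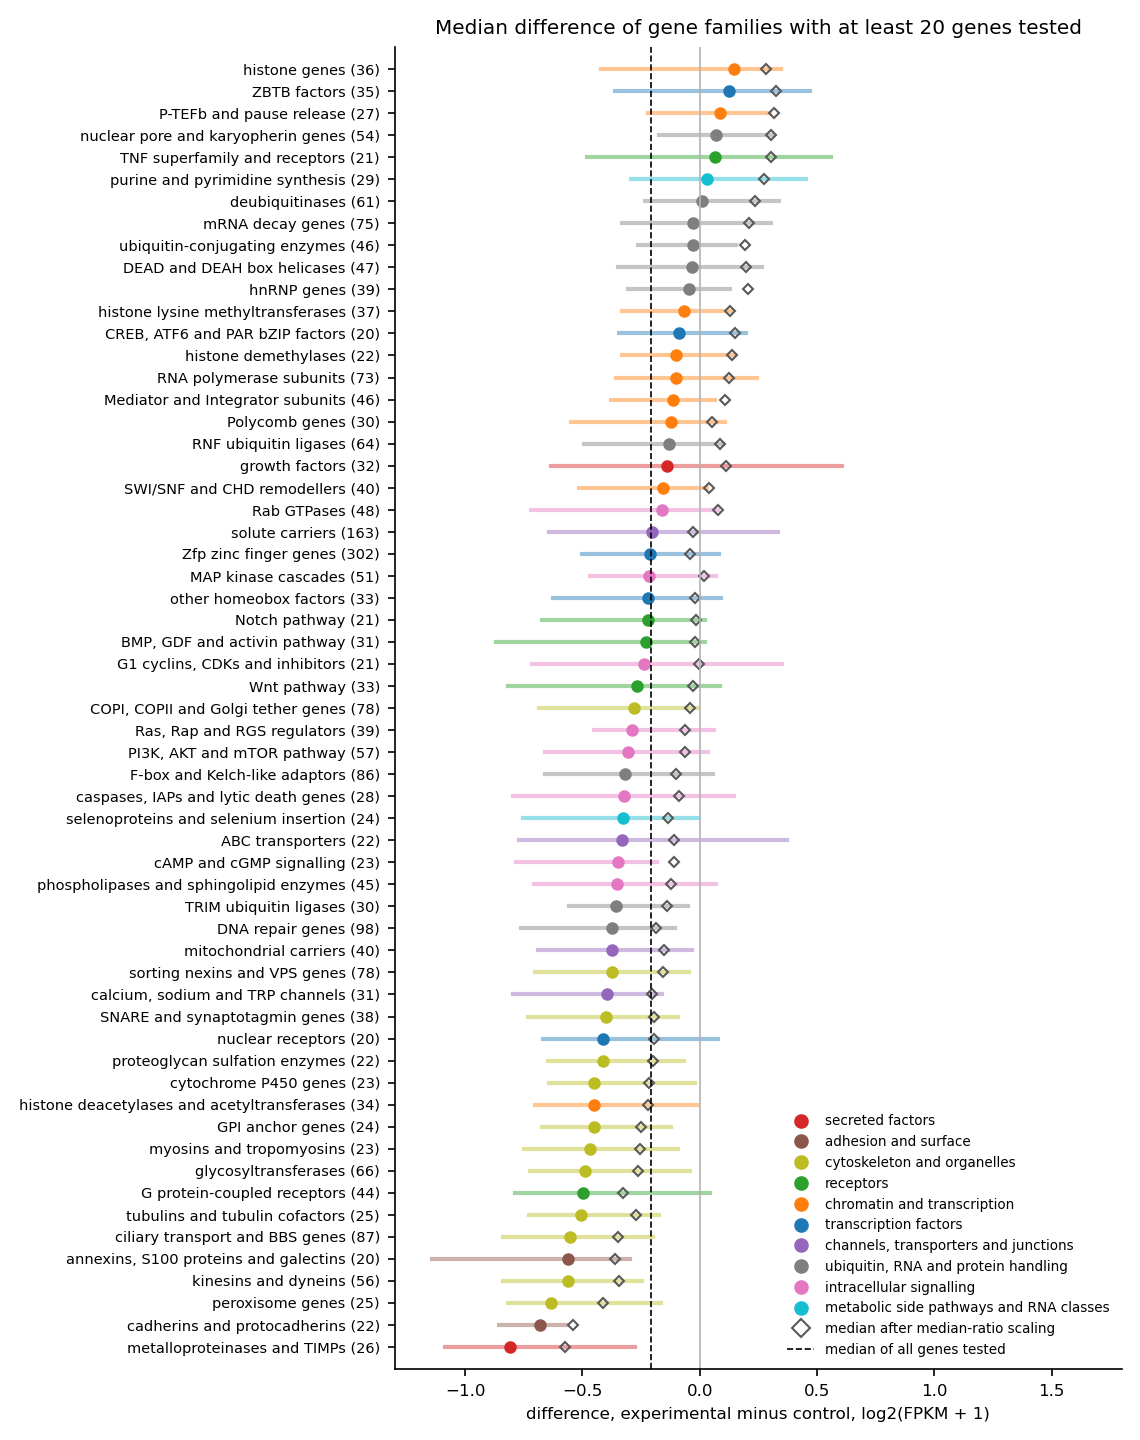
Median difference (dots) and quartiles (bars) of log2(FPKM + 1), experimental minus control, in gene families with at least 20 genes tested, coloured by class, with the number tested in brackets. The dashed line is the median of all genes, -0.21, and open diamonds give medians after median-ratio scaling. Metalloproteinases with their inhibitors and cadherins lie lowest on the deposited scale, while histone genes, ZBTB factors, pause release and nuclear pore genes lie above 0.

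A rule for genes nearly absent from 1 group took those with every library under 0.5 FPKM there and at or above 2 FPKM in the other. It gave 8 genes in the experimental group and 10 in the control group. The first 8 were Gdf15 and Rnf183, described above, the glutathione transferase Gsta1 with its predicted relative Gm3776, Tmem179, and Gm12871, Gm45053 and Cyp2c52-ps, which are predicted genes or pseudogenes. Gsta1 was at 5.68, 5.94 and 4.60 FPKM in experimental libraries and at 0.00, 0.00 and 0.35 in controls. The 10 present in controls alone by this rule included the interferon-induced genes Ifit1, Ifit3b and Xaf1, the secreted proteins C1qtnf1 and Spon2, the Fc receptor Fcgr4 and the RNA-binding protein Celf5. C1qtnf1 was at 0.44, 0.42 and 0.21 FPKM in experimental and 6.76, 6.07 and 6.15 in control libraries (17.7-fold lower, adjusted p = 4.81e-08). Ifit1 was at 0.30, 0.45 and 0.13 against 5.50, 5.24 and 6.0, and the Ifit genes are close copies of each other.

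The shares of genes that rose and fell also varied with gene properties. Among 10004 protein-coding genes, 2.76% were at least 1 log2 unit higher and 8.73% lower. GC content was that of the longest transcript of each gene. The share lower was 4.55% in the quintile with the lowest GC content and 13.8% in the quintile with the highest, 2.10% and 7.30% after median-ratio scaling. It was 10.9% in the quintile with the shortest exonic length and 4.998% in the longest, 5.70% and 2.40% after median-ratio scaling. The share higher also fell with exonic length, from 3.55% in the shortest quintile to 1.70% in the longest. After median-ratio scaling it was 5.50% and 3.85%. The share higher was 6.60% in the most abundant quintile and 1.10% to 2.999% in the others. The part of GC content, length and level in the family results was not tested. Processed pseudogenes, of which 854 were tested, had a median difference of 0.08, above that of protein-coding genes, -0.26.

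**Figure D5:**
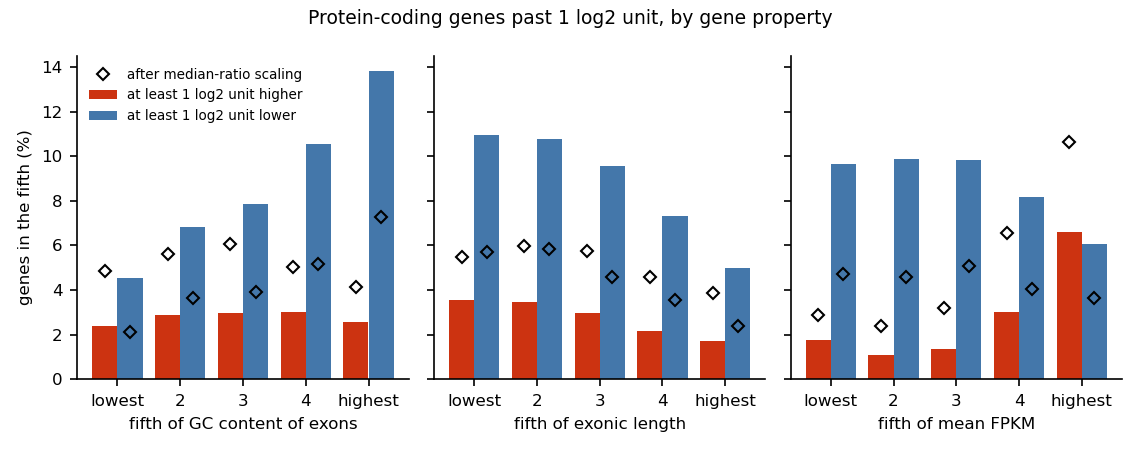
Percent of protein-coding genes at least 1 log2 unit higher (red) or lower (blue) at an adjusted p under 0.05, in quintiles of GC content, exonic length and mean FPKM of the 6 libraries. The GC content, labelled as that of exons, is that of the longest transcript of each gene. Open diamonds give the shares after median-ratio scaling. The share lower climbs with GC content from 4.55% to 13.8%, and the share higher is largest in the most abundant quintile.

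Promoter sequence was set beside the direction of change. RefSeq windows of 300 bases (250 before and 50 after the annotated start, assembly GRCm38.p6) were found for 80.6% of the protein-coding genes tested and for 80.4% of those at least 1 log2 unit higher. They covered 79.6% of those lower, just under the minimum of 80%, so the check is void for that set. The AP-1 letters TGACTCA, read on both strands, were in 7.21% of the windows of genes at least 1 log2 unit higher, 3.13% of those of all protein-coding genes tested, and 5.20% of all 32851 windows in the table. In the incompletely covered lower set the share was 4.17%. After median-ratio scaling the shares were close, 5.60% of the windows of higher genes and 5.67% of those of lower genes. Window coverage was not computed for the sets on that scale, so these shares cannot decide whether the letters set the directions apart. The TATA letters TATAAA were in 10.8% against 6.15%, and 13.6% of all windows. The letters TGATGNAA, bound by C/EBP and ATF dimers, were in 3.15% against 1.96%, and 3.97% of all windows, and in 4.14% of higher genes after median-ratio scaling. The antioxidant response core TGACNNNGC, which overlaps AP-1 in some sites, was in 17.1% against 14.8%, and 12.4% of all windows. Other motifs went in both directions. The E-box CACGTG was in 15.8% against 10.7%, and 7.15% of all windows. The TEAD letters GGAATG were in 6.31% against 11.4%, and 14.7% of all windows. The forkhead letters GTAAACA were in 1.35% against 2.39%, and 3.65% of all windows. These are some of 13 motifs searched, a match is a description of letters, and no test was made.

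The following stretches are from named genes that rose by at least 1 log2 unit and hold the AP-1 letters, shown to let the sites in genes described above be read, not as evidence that the motif marks risen genes. Capitals mark the AP-1 letters on either strand, with up to 30 bases on each side, 5′ to 3′ on the gene's strand.
Cntf (chr19:12765841-12765882, minus strand): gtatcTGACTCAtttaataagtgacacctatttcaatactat
Klhl21 (chr4:152008753-152008819, plus strand): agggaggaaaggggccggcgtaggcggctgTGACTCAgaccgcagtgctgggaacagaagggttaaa
Procr (chr2:155751033-155751099, plus strand): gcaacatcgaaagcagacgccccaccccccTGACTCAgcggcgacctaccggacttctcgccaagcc
Rc3h1 (chr1:160906248-160906314, plus strand): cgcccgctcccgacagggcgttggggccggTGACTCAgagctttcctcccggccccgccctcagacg
Srxn1 (chr2:152105392-152105458, plus strand): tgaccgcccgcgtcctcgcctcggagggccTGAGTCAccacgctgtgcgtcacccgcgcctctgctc
Srxn1 (chr2:152105449-152105515, plus strand): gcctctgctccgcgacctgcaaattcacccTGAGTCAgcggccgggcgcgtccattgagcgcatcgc
Xpot (chr10:121626367-121626433, minus strand): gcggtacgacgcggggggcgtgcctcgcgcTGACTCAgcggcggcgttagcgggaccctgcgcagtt
Procr, Xpot and Klhl21, described above, share these letters within 154 bases before their RefSeq starts, and Srxn1, the sulfiredoxin that repairs peroxiredoxins, holds them at 2 places. The C/EBP and ATF letters stood in the windows of Fgf21, of Slc1a4, 4 bases before its start and not printed because the stretch runs into the transcript, and of Arid5a, a regulator of cytokine mRNA stability that rose 2.74-fold. Capitals mark them on the same terms.
Arid5a (chr1:36307539-36307606, plus strand): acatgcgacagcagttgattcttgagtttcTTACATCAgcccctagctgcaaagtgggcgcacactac
Fgf21 (chr7:45615592-45615659, minus strand): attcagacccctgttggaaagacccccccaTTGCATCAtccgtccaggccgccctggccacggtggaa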

How the data were processed

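The labels describe mRNA sequencing of HT22 cells in 3 groups of 3, with RNA from a Qiagen RNeasy kit, SMARTer mRNA-Seq libraries and a NovaSeq, per the labels' protocols. The authors deposited 1 table of FPKM per gene; the build mm10 is given per the submitters' processing notes, and the aligner, counter and strand setting were not given in the sources used here. Nothing in the table gives reads per library, so its precision is known only from the replicates.

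Entries with at least 1 FPKM in at least 3 of 9 libraries were tested on log2(FPKM + 1) with limma 3.58.1 in R 4.3.3, in a fit of all 3 groups with a mean-variance trend, and p-values were adjusted by Benjamini-Hochberg over all 11974. A fold change is a ratio of mean FPKM, and a log2 difference is on the log2(FPKM + 1) scale, which understates low genes. An exact test of 3 against 3 could not go below 0.1. In data simulated for this comparison over 11974 genes, 18, 40, 47 and 50 of 50 changed genes were recovered at folds of 1.25, 1.5, 2 and 4, with 7 unchanged genes called. The simulation changed far fewer genes than were called in the real libraries and had no scale offset between groups. Its recovery and its false calls therefore need not hold for the real comparison.

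Members, lists and the naming rule were chosen with earlier results of these data known. Named genes are, per list, up to 3 in each direction at least 1 log2 unit apart with no overlap and a mean of at least 2 FPKM in the higher group, plus the most abundant member. From the whole table, up to 12 called genes in each direction with the largest differences were added. These also had no overlap and a mean of at least 5 FPKM in the higher group, and predicted and ribosomal protein genes were left out. Ptch1, Hoxa5, Stat3, Irf2, Irf9, Fgfr1, Notch2, Ifngr1, Ifngr2, Il4ra, Mmp2, Mmp14, Timp1, Nup153, Ranbp2, Ipo13 and the receptors of named ligands were chosen after their values were seen. Gene type, GC content and exonic length came from a mouse gene annotation. Alternatives changed the pseudocount, filter, scaling, libraries and fit. A few genes and 1 gene list are not reported here.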

Additional observations from a re-analysis of the deposited data

How the results depend on the processing

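Leaving out each library in turn gave 2599 to 2801 genes higher and 5686 to 6040 lower, and 348 to 403 and 911 to 1038 at least 1 log2 unit higher and lower. The counts moved by over 1.5 times under these settings. A pseudocount of 0.1 gave 597 genes at least 1 log2 unit higher and 1755 lower. Keeping genes with a mean of at least 5 FPKM tested fewer genes and gave 3556 lower and 544 lower by at least 1 log2 unit. Median-ratio scaling gave 4380 higher, with 667 and 486 at least 1 log2 unit higher and lower, quantile normalization gave 606 and 492, and scaling to TPM gave 1733 lower. The cause was not tested. Of the genes named, Spp1 turned to 0.032 after median-ratio scaling, and the uncalled Irf2 and Stat3 to 0.23 and 0.19 after quantile normalization. A fit with the replicate number as a replicate block gave 2765 higher and 5967 lower, 364 and 956 of them by at least 1 log2 unit. Deviations from the group means correlated at -0.05, 0.11 and 0.11 between same-numbered libraries and at -0.14 to 0.04 between differently numbered ones. With 3 libraries per group these values cannot settle whether a number marks a shared culture or batch. Count tests were not run, since whole reads could not be recovered: of 5440 values above 0 of genes under 200 bases, 931 (17.1%) were below what 1 fragment is worth in a very deep library.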

Other observations

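Predicted and unnamed genes, which belong to no functional family above, were spread over both directions. Of 1627 tested, 62 were at least 1 log2 unit higher and 55 lower, or 114 and 28 after median-ratio scaling. Among all called, 395 were higher and 469 lower as deposited, 608 and 311 after median-ratio scaling and 348 and 513 after scaling to TPM. Gm10252, a predicted gene, was at 40.8, 57.9 and 52.0 FPKM in experimental and 1.65, 4.72 and 1.19 in control libraries, and its groups did not overlap.

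The intervention libraries entered the estimate of spread but no comparison above. Procr was at 42.9, 52.2 and 52.7 FPKM there, below every experimental and above every control library. Jag1 was at 4.12, 4.66 and 4.83, also between the other groups. Osr1 was at 9.24, 7.14 and 7.91 and Gas1 at 12.5, 8.63 and 11.1, above every experimental and below every control library. Pdgfrb was at 5.43, 4.89 and 5.23, where 1 of the 3 values lay within the experimental range. These differences from the intervention group were not tested here.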
